A study of Mus musculus with 12 samples.

Results

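A set of 9 genes that write, copy or remove the marks of DNA methylation and Polycomb was followed through the postnatal maturation of the mouse auditory nerve. They are Dnmt1, Uhrf1, Dnmt3b, Dnmt3a and Tet1, which act on cytosine methylation, and Ezh2, Ezh1, Suz12 and Eed, which form the core of Polycomb repressive complex 2 (PRC2). The genes were set by name, for their known roles, when earlier results of these data were known, and all 9 were measured, by 29 of the 45037 probe sets tested. The array holds 18193 genes with a symbol of their own, and a gene is described by its brightest such probe set over the 12 arrays, with its other probe sets as a check. The tissue came from untreated CBA/CaJ mice, taken on the day of birth (P0) and on postnatal days P3, P7, P10, P14 and P21, with 2 mice at each of the 6 stages, and carried no transgene or deletion. Both genders were used in the study. Both cochleas of 1 mouse were pooled for each array. The dissected piece was the modiolus, the bony axis through which the nerve runs, with most but not all of the sensory epithelium taken away.

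DNA methylation at CpG is laid down by Dnmt3a and Dnmt3b and copied after each replication by Dnmt1, which Uhrf1 brings to hemimethylated DNA. Tet1 oxidizes methylcytosine and so opens the way to its loss. PRC2 methylates histone H3 at lysine 27 (H3K27) through either Ezh2, the catalytic subunit typical of dividing progenitors, or Ezh1, the one kept in differentiated cells, and both need Suz12 and Eed. In the nervous system these enzymes are known for holding progenitor programs and then closing them as neurons and glia mature.

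Values are log2 RMA values, so a difference of 1 is a 2-fold difference, and levels are compared between stages of 1 probe set and never between probe sets. A call, higher or lower, needed an adjusted p (limma, Benjamini-Hochberg over 45037 probe sets) under 0.05 and a fold over 1.5. Means are given ± SD (n = 2 mice). The nerve markers were present: the mean log2 level of 9 neuron genes was 11.81 at P21 and 10.35 at P0, and that of 7 Schwann cell genes was 11.69 at P21 and 9.67 at P0, where the median probe set of an array lay between 6.70 and 6.79. The mean over 7 hair cell genes was 7.14 at P21 and 7.56 at P0. Markers of other cells moved more: the mean log2 level of bone genes was 12.15 at P10 and 11.25 at P21, against 7.89 at P0, that of oligodendrocyte genes 10.56 and 10.91, against 6.81, that of neutrophil and marrow genes 9.51 and 9.16, against 6.93, and that of erythroid genes 8.81 and 8.60, against 6.5. Macrophage genes read 9.79 at P7, against 8.54 at P0. The part of these shifts in the members' changes was not tested. In such bulk tissue, fewer cells of a type and less RNA per cell cannot be told apart. Some arrays stood apart. Both P21 arrays had an excess of 3′ over 5′ signal for the control gene Actb of 2.32 and 2.03 log2 units, against 0.81 to 1.41 on the other 10 arrays, and of 1.65 and 1.37 for Gapdh, against 0.18 to 0.68. Replicate 1 of P14 had a mean log2 level of 11.38 over neutrophil and marrow genes, 10.13 over erythroid genes and 8.36 over B cell genes, against 9.20, 8.71 and 7.34 in replicate 2.

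The promoters of 5 members are shown, the 4 that hold E2F-type letters, of the kind bound by E2F factors of the cell cycle, and that of Ezh1, the 1 member that rose, which holds none in its window. The windows are RefSeq promoters (GRCm38.p6) of 300 bases, from 250 before to 50 after an annotated start, so they hold upstream sequence and the beginning of the first exon. The letters searched, on both strands and with overlaps allowed, were TTTGGCGC, TTTCGCGC, TTTCCCGC and TTTGCCGC. A match stood in 744 of 32851 windows of the same length (2.26%), and in 4 of the 14 windows of the members. These shares are not of like windows. Each form searched holds a CpG, and the matching windows of the members were richer in CpG than the median window. The share among windows of like CpG count was not examined. Capitals mark the matches. Dnmt1 has 3 annotated starts and the matching window, at chr9:20952574-20952873 on the minus strand, holds 2 matches, the first base of which lies at -219 and 34 from the start. Uhrf1 has 2 starts and its matching window is chr17:56304063-56304362 on the plus strand, with the match at -185. Those of Ezh2 (chr6:47594981-47595280, minus strand) and Suz12 (chr11:79992856-79993155, plus strand) have it at 4 and at -219. The window of Ezh1 is chr11:101226414-101226713 on the minus strand.
Dnmt1: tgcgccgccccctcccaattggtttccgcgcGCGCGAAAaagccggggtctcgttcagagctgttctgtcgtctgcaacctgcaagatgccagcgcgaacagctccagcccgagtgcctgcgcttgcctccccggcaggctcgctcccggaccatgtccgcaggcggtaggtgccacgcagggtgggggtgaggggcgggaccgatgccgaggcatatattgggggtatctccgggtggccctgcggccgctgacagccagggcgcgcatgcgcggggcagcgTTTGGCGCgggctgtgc
Uhrf1: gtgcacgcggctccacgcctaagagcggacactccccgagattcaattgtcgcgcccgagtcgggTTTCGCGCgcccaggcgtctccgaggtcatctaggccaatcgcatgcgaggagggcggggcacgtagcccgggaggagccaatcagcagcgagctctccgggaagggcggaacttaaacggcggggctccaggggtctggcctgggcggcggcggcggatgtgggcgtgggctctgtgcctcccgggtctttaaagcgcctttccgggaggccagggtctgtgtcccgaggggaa
Ezh2: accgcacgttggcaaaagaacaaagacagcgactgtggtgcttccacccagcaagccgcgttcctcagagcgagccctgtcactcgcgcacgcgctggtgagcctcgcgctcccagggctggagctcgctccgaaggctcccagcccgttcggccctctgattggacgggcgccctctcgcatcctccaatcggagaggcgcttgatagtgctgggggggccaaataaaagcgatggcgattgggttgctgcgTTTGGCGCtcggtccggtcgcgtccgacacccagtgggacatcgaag
Suz12: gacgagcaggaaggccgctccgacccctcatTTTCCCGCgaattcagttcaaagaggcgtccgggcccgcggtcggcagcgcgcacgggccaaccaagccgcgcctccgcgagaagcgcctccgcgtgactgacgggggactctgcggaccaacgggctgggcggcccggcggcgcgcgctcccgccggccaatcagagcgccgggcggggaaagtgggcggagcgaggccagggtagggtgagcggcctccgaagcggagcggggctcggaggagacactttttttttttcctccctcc
Ezh1: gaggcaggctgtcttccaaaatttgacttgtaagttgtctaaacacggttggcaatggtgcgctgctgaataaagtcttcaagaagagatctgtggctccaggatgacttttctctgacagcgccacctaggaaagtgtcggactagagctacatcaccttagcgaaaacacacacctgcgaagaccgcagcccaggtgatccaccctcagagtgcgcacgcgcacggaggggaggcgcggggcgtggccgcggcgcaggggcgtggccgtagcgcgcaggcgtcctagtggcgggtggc

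The 5 windows shown held 33 (Dnmt1), 33 (Uhrf1), 31 (Ezh2), 41 (Suz12) and 23 (Ezh1) CpG, where the median window had 7. The windows at the other starts of Dnmt1 held 2 and 12 and that of Uhrf1 12, with no match. The windows of Dnmt3b, Eed and Tet1 held 30, 17 and 17 CpG and no match, and the 3 of Dnmt3a held 46, 47 and 18 and no match. A match of letters is a description of the sequence and does not show that a factor binds there.

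No more than 4 of the 9 members were called lower than at P0 up to P14, and 6 at P21, the stage with the shifted RNA balance. At P3, Dnmt1 and Dnmt3b were lower than at P0, that is 2 of 9 members lower where 2.8% of all probe sets were (3.78% in either direction). At P7, Uhrf1 joined them, giving 3 members lower beside 5.68% of probe sets, and none higher beside 5.44% (11.1% in either direction). At P10 and again at P14, Dnmt1, Dnmt3b, Uhrf1 and Ezh2 were lower and Ezh1 was higher than at P0. The 4 lower members compare with 10.1% of probe sets lower at P10 and 11.3% at P14, and the 1 higher member with 9.24% and 10.2%; in either direction 19.3% and 21.4% were called. At P21, 6 members were lower, with Dnmt3a and Tet1 added, beside 14.9% of probe sets, and Ezh1 was higher, beside 12.4% (27.2% in either direction). The median log2 change of the 9 members against P0 was -0.36 at P3, -0.28 at P7, -0.33 at P10, -0.42 at P14 and -0.88 at P21, and that of all probe sets lay between -0.01 and 0.04. Over the 6 stages 7 members passed the moderated F-test with a range over 1.5-fold, all but Suz12 and Eed, where 38.3% of probe sets did. These shares are over all probe sets, dim ones included, while each member is read on its brightest. With both P21 arrays left out, a setting chosen after seeing the data, each count of members at P3, P7, P10 and P14 against P0 was the same.

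**Figure D1:**
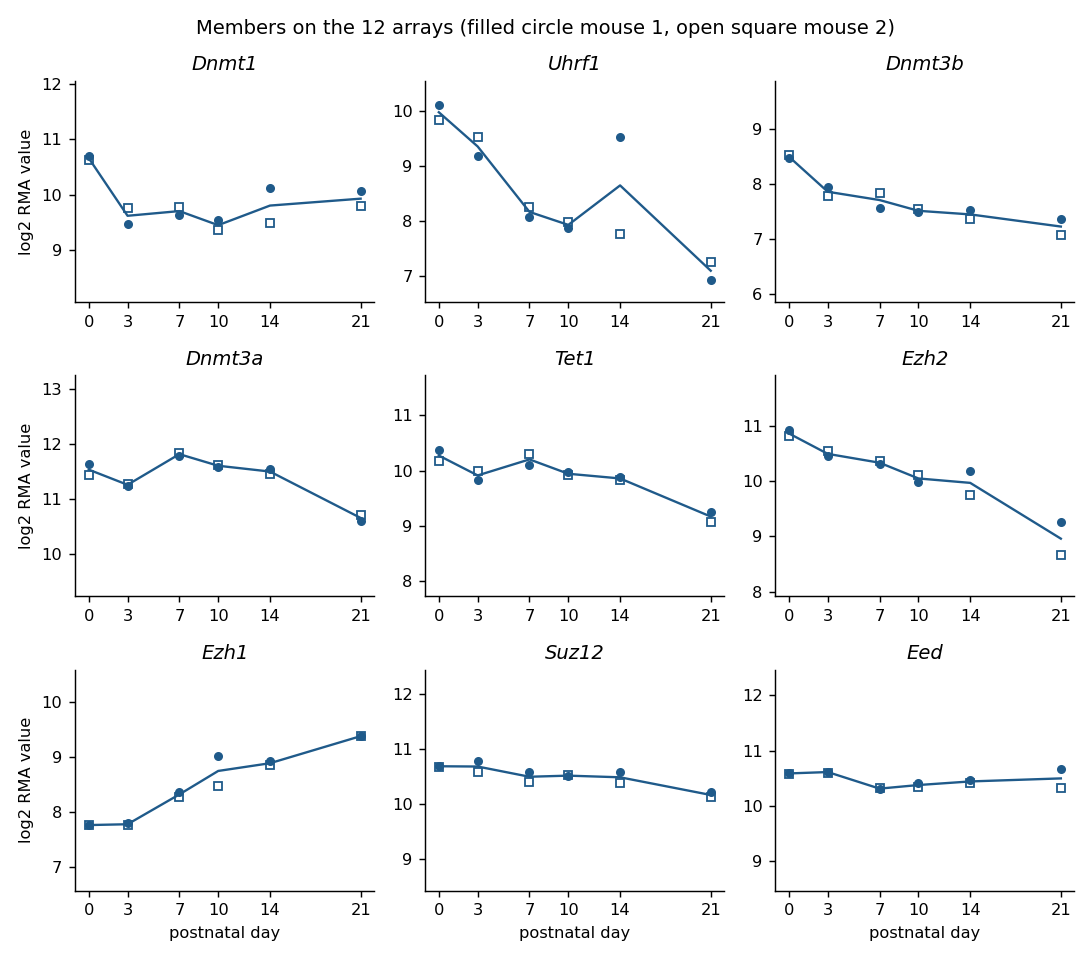
Log2 RMA value (y axis, 4 units in every panel) of the brightest probe set of each of the 9 members against postnatal day (x axis), with a filled circle for replicate 1, an open square for replicate 2 and a line through the stage means. Ezh1 climbs from P7 on, Dnmt1 drops by P3 and stays down, Ezh2 has its lowest arrays at P21, Uhrf1 falls to P21 except for 1 high P14 array, and Dnmt3a and Tet1 are lowest at P21.

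Between neighbouring stages few members passed. From P3 to P7 (9.98% of probe sets called, 6.0% higher and 3.98% lower), P7 to P10 (0.231%, 0.104% higher and 0.127% lower) and P10 to P14 (0.0%), limma called none of the 9, with 5, 1 and 0 members at an unadjusted p under 0.05. The share of all probe sets under that unadjusted p was not counted. The methods' t-test without adjustment called 1, 0 and 0 members, beside 3163, 416 and 370 of all 45037 probe sets. From P14 to P21, Dnmt3a, Ezh2 and Tet1 fell, 3 of 9 where 1.73% of probe sets fell (2.45% in either direction). These 3 calls were made against both P14 arrays, and without P14 replicate 1 none passed, while without P21 replicate 2 only that of Dnmt3a did.

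Dnmt1, the maintenance methyltransferase, dropped in the first 3 days and stayed low. Its log2 level was 10.70 and 10.62 on the P0 arrays, 9.47 and 9.76 at P3, 9.63 and 9.77 at P7, 9.53 and 9.36 at P10, 10.12 and 9.48 at P14 and 10.06 and 9.79 at P21. Both P0 arrays were above all 10 later ones, and no step between later neighbouring stages was called. It averaged 9.62 ± 0.21 at P3 and 10.66 ± 0.06 at P0, a fall of 2.06-fold (log2 change -1.04, SE 0.20, adjusted p = 0.0154, limma). At P10 the fall was 2.32-fold (adjusted p = 0.00117) and at P21 1.66-fold (adjusted p = 0.0123). The probe set shown is of a kind that can bind more than 1 transcript, and the other probe sets of Dnmt1, 1422946_a_at and 1447877_x_at, fell 1.99-fold and 1.86-fold at P3 and 2.28-fold and 2.25-fold at P10, all 4 changes called. The P3 call was lost without either P0 array (adjusted p = 0.119 and 0.0805) or without P3 replicate 1 (adjusted p = 0.0944), the P7 call without P0 replicate 1 or P7 replicate 1, and the P21 call without P0 replicate 1 or P21 replicate 2. The P14 call was lost without P14 replicate 2 (adjusted p = 0.0522). The P10 call passed with any 1 array left out.

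Uhrf1, the partner that reads hemimethylated CpG, had the largest fall of the 9 at P10 and at P21. Its arrays gave 10.11 and 9.83 at P0, 9.17 and 9.53 at P3, 8.08 and 8.25 at P7, 7.88 and 7.98 at P10, 9.53 and 7.76 at P14 and 6.94 and 7.26 at P21. The levels stepped down at every stage but P14, whose replicate 1 returned to the P3 range while its replicate 2 lay below both P10 arrays. At P10 it averaged 7.93 ± 0.07, against 9.97 ± 0.20 at P0, a 4.11-fold fall (log2 change -2.04, SE 0.43, adjusted p = 0.00501), and at P21 7.10 ± 0.23, a 7.31-fold fall (adjusted p = 0.000431). With the Actb balance as a covariate the P21 change was -0.11 (adjusted p = 0.981), no longer the largest of the 9 and not called. The second probe set, 1415811_at, fell by 1.48 at P10 and by 1.70 at P21, both called. The P7 call (log2 change -1.80, adjusted p = 0.0166) was lost without any 1 of the P0 or P7 arrays. At P14 the fall against P0 was 2.51-fold (adjusted p = 0.0369) and shrank to a log2 change of -0.44 (adjusted p = 0.167) without P14 replicate 2. That call was also lost without either P0 array or either P10 array.

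Hells, a chromatin remodeller needed for DNA methylation, was no member but moved alike. Its log2 level was 7.45 and 7.68 at P10 and 9.76 and 9.28 at P0 (3.88-fold lower, adjusted p = 0.00156), and 7.25 and 6.85 at P21 (5.54-fold lower). On P14 replicate 1 it read 8.44, against 7.30 on replicate 2. Of the 8 genes in the list of methyltransferases and cofactors, 4 were lower at P10 and 5 at P21. None was higher in either comparison. Beside them, 10.1% and 14.9% of all probe sets were lower, and 9.24% and 12.4% higher. All but Hells were members, namely Dnmt1, Dnmt3b and Uhrf1 at P10, with Dnmt3a added at P21. Dnmt3l, Uhrf2 and Usp7 were not called in either comparison.

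Genes of cell division went down over the same days. Of 26 DNA replication genes, 19 were lower at P10 than at P0 (median log2 change -1.13) and 23 at P21 (-1.40), and of 18 mitosis genes 14 (-1.68) and 18 (-2.70), with none higher. Beside these, 10.1% of all probe sets were lower at P10 and 14.9% at P21. The mean log2 level of the mitosis genes was 9.42 and 9.18 at P0, 7.58 and 8.85 at P3, 7.75 and 8.04 at P7, 7.52 and 7.59 at P10, 8.64 and 7.13 at P14 and 6.62 and 6.62 at P21. It was thus raised on the same P14 array as Uhrf1, the array with the higher marrow and erythroid levels, and the replication list read 9.07 on that array and 8.24 on the other. On the P3 pair, Uhrf1 was 9.17 where the mitosis mean was 7.58 and 9.53 where it was 8.85. The part of these lists in the levels of Uhrf1 and Dnmt1 was not tested.

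**Figure D2:**
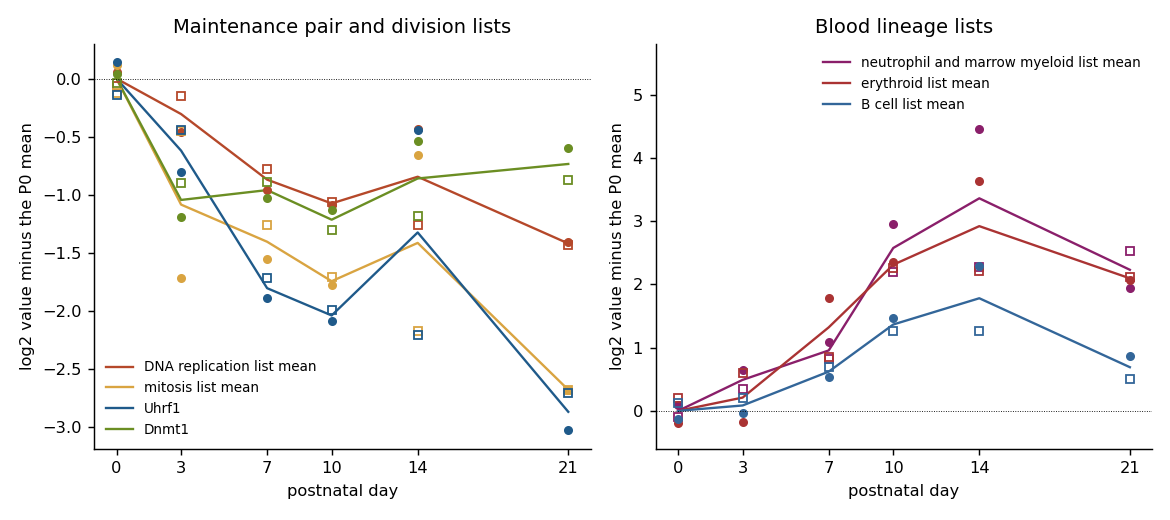
Left, log2 value minus the P0 mean (y axis) against postnatal day (x axis) for Uhrf1, Dnmt1 and the mean over the DNA replication and the mitosis genes; right, the same for the means over neutrophil and marrow, erythroid and B cell genes. Filled circles are replicate 1, open squares replicate 2 and lines the stage means. At P14 the 2 replicates part in all 7 series, with replicate 1 higher.

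Dnmt3b, the de novo enzyme typical of early embryonic cells, was lower than at P0 at every later stage. Its log2 level was 8.46 and 8.52 at P0, 7.94 and 7.77 at P3, 7.57 and 7.84 at P7, 7.48 and 7.54 at P10, 7.53 and 7.36 at P14 and 7.37 and 7.08 at P21. Both P0 arrays were above every later array, and later neighbouring stages overlapped except P7 and P10, with no step between them called. The fall against P0 was 1.55-fold at P3 (adjusted p = 0.0257), 1.97-fold at P10 (log2 change -0.98, SE 0.14, adjusted p = 0.000484) and 2.40-fold at P21 (adjusted p = 5.8e-05). Its other probe set, 1418351_a_at, was lower by 0.82 at P10 (adjusted p = 0.00127) but gave a log2 change of -0.28 at P3 that was not called. The P3 call of the brightest probe set was lost without any 1 of the P0 or P3 arrays, while those from P7 on passed with any 1 array left out.

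Dnmt3a, the de novo enzyme of postnatal neurons, was not called against P0 on its brightest probe set until P21. Its log2 level was 11.64 and 11.43 at P0, 11.24 and 11.28 at P3, 11.79 and 11.84 at P7, 11.59 and 11.62 at P10, 11.55 and 11.45 at P14 and 10.61 and 10.71 at P21. P7 was the highest stage, P3 and P21 the lowest, and the P10 and P14 arrays lay within the span of those of P0. The step up at P7 against P3 was 1.47-fold, with an adjusted p of 0.00617 but under the fold limit. The nearly as bright 1423063_at was called for this step (1.77-fold higher, adjusted p = 0.00336), as was the mean of all 5 probe sets (log2 change 0.72, adjusted p = 0.0143). That mean was also called lower at P3 than at P0 (log2 change -0.66, adjusted p = 0.0431, limma). At P21 the brightest probe set averaged 10.66 ± 0.07, against 11.54 ± 0.15 at P0 (1.83-fold lower, adjusted p = 0.000106) and 11.50 ± 0.07 at P14 (1.79-fold lower, adjusted p = 0.00785).

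The 5 probe sets of Dnmt3a differed. Probe set 1423064_at fell already at P3, by 0.91 (adjusted p = 0.00631), and was lower by 1.08 at P10, where the log2 change of the brightest was 0.07. Probe sets 1423065_at and 1423066_at had log2 changes of 0.66 and 0.17 at P10, neither called, and fell 3.94-fold and 5.30-fold at P21 against P0. Probe set 1423063_at fell 1.85-fold at P21. All 5 were called lower at P21 than at P0. Which of the probe sets binds which transcript of Dnmt3a was not examined.

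Tet1, which oxidizes methylcytosine, changed late. Its log2 level was 10.38 and 10.17 at P0, 9.84 and 9.99 at P3, 10.11 and 10.30 at P7, 9.97 and 9.92 at P10, 9.88 and 9.84 at P14 and 9.26 and 9.08 at P21. The arrays of P3 to P14 lay between 9.84 and 10.30, and both P21 arrays were below all others. The fall at P21 was 2.15-fold against P0 (log2 change -1.10, SE 0.12, adjusted p = 6.05e-05) and 1.61-fold against P14 (adjusted p = 0.0205). At P14 it was 1.33-fold lower than at P0, with an adjusted p of 0.0223 but under the fold limit. Among its other probe sets, 1429448_s_at fell by 2.13 and 1419896_at by 1.10 at P21 against P0, while the dim 1419897_at gave a log2 change of -0.16 that was not called.

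The P21 falls of Dnmt3a and Tet1 stand beside the RNA balance of those arrays. With the Actb balance as a covariate, which at P21 is nearly the stage itself, the log2 change of P21 against P0 was -0.62 for Dnmt3a and -1.52 for Tet1, and neither passed (adjusted p = 0.47 and 0.108). None of the 7 members called at P21 against P0 passed in that fit: Dnmt1 had -0.51, Dnmt3b -1.34, Uhrf1 -0.11, Ezh2 -2.14 and Ezh1 1.77. Over all probe sets, 605 were called at P21 against P0 in that fit and 12262 without the covariate. The P21 stage and its RNA balance cannot be told apart with these arrays.

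**Figure D3:**
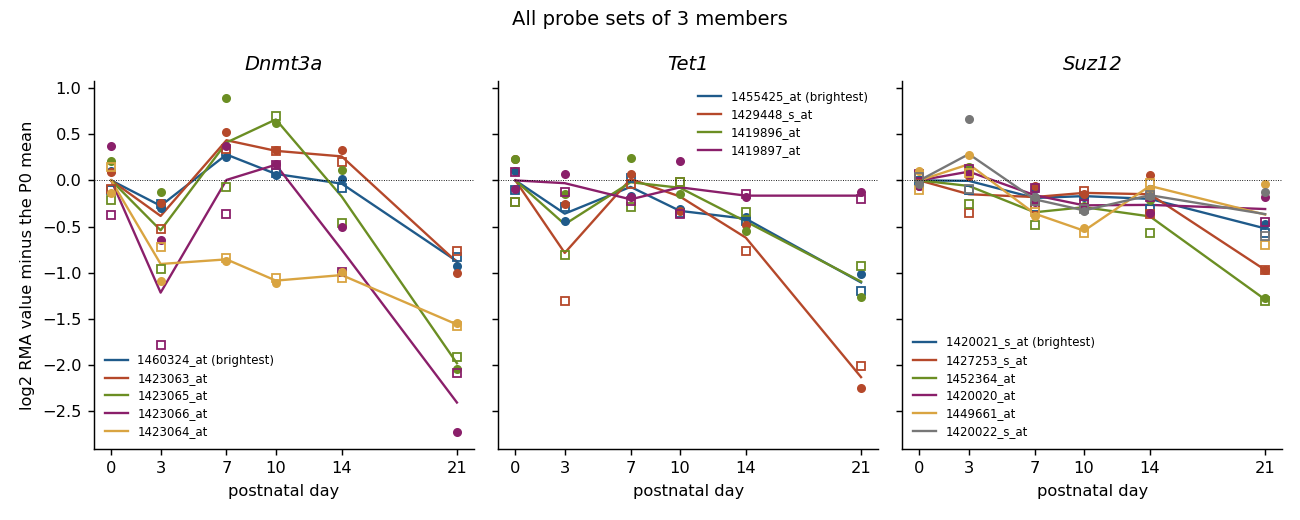
Log2 RMA value minus the P0 mean (y axis) against postnatal day (x axis) for every probe set of Dnmt3a, Tet1 and Suz12, with filled circles for replicate 1, open squares for replicate 2 and lines through stage means. Probe set 1423064_at of Dnmt3a is down from P3 on, and at P21 the log2 changes of the 5 probe sets of Dnmt3a run from -0.88 to -2.40.

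Of the 9 matched genes of methylcytosine oxidation and removal, 3 were higher and 1 lower at P10 than at P0, and 3 were higher and 2 lower at P21. Over all probe sets the shares were 9.24% higher and 10.1% lower at P10, and 12.4% and 14.9% at P21. The risers were the Gadd45 genes, stress-induced proteins linked to active demethylation as well as to growth arrest. Gadd45a was 9.67 and 10.04 at P10 and 8.09 and 8.32 at P0. Gadd45b was 9.03 and 8.96, against 8.28 and 7.88, and Gadd45g 8.71 and 8.28, against 7.34 and 7.05. The rises were 3.14-fold, 1.89-fold and 2.46-fold (adjusted p = 3.21e-05, 0.007 and 0.000675, limma). Of the other 2 probe sets of Gadd45b, 1 was called higher at P10 and none at P21. Apex1, an endonuclease of base excision repair, was 10.30 and 10.50 at P10 and 11.25 and 11.54 at P0, and 2 further probe sets of it fell by 1.02 and 1.16.

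Within the PRC2 core the 2 catalytic subunits moved in opposite directions while their partners changed little up to P14. Ezh2 had log2 levels of 10.92 and 10.81 at P0, 10.45 and 10.54 at P3, 10.31 and 10.36 at P7, 9.99 and 10.11 at P10, 10.19 and 9.75 at P14 and 9.26 and 8.66 at P21. Each stage lay below the one before it, with overlap only between P10 and P14. It averaged 10.05 ± 0.08 at P10 and 10.87 ± 0.08 at P0 (1.76-fold lower, log2 change -0.82, SE 0.19, adjusted p = 0.00935). At P21 it averaged 8.96 ± 0.42, which was 3.75-fold lower than at P0 (adjusted p = 4e-05) and 2.01-fold lower than at P14 (adjusted p = 0.0262). The P10 call was lost without P0 replicate 1 (adjusted p = 0.0626) or P10 replicate 1 (adjusted p = 0.0679). Ezh2 had 1 probe set, so nothing within the gene checks it.

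Ezh1 had log2 levels of 7.77 and 7.76 at P0, 7.80 and 7.76 at P3, 8.36 and 8.28 at P7, 9.01 and 8.48 at P10, 8.92 and 8.85 at P14 and 9.37 and 9.38 at P21. P0 and P3 could not be told from each other, every array from P7 on was above both, and P10 overlapped with P14. At P7 it was 1.47-fold higher than at P0, with an adjusted p of 0.0287 but under the fold limit. It was 1.97-fold higher at P10 (8.75 ± 0.37, against 7.77 ± 0.01 at P0, adjusted p = 0.000814), 2.17-fold at P14 and 3.05-fold at P21 (log2 change 1.61, SE 0.15, adjusted p = 2.3e-05). These calls passed with any 1 array left out. A second probe set, 1418290_a_at, rose by 0.72 at P10 (adjusted p = 0.00392) and 0.84 at P14 (adjusted p = 0.00148), and gave 0.48 at P21, which was not called. The remaining 2 were in the lowest 25% of values on all 12 arrays and may be background, and with the mean of all 4 probe sets the log2 change of Ezh1 at P10 was 0.55, under the fold limit.

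Suz12 had log2 levels of 10.69 and 10.68 at P0, 10.78 and 10.58 at P3, 10.59 and 10.40 at P7, 10.51 and 10.52 at P10, 10.59 and 10.38 at P14 and 10.21 and 10.12 at P21. The arrays of P3 to P14 overlapped, and those of P21 were the lowest. The fall at P21 against P0 was 1.43-fold, with an adjusted p of 0.00502 but under the fold limit. Of its 5 other probe sets, 1427253_s_at fell by 0.97 (adjusted p = 0.00105) and 1452364_at by 1.29 (adjusted p = 0.000146) at P21 against P0, and the other 3, all dimmer, had log2 changes from -0.37 to -0.31 that were not called.

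Eed had log2 levels of 10.59 and 10.58 at P0, 10.62 and 10.60 at P3, 10.30 and 10.32 at P7, 10.41 and 10.34 at P10, 10.46 and 10.42 at P14 and 10.66 and 10.33 at P21. No comparison of Eed had an adjusted p under 0.05, and its log2 change against P0 lay between -0.28 and 0.02 (SE 0.11). Of the 6 genes in the PRC2 core list, 1 was higher and 1 lower at P10, at P14 and at P21, namely Ezh1 and Ezh2. At these stages 9.24% to 12.4% of all probe sets were higher and 10.1% to 14.9% lower.

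**Figure D4:**
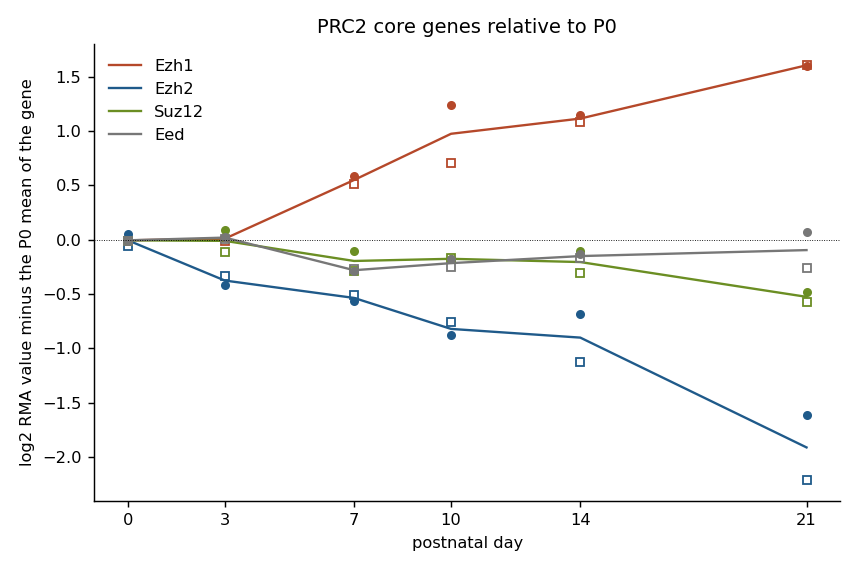
Log2 RMA value minus the P0 mean of the gene (y axis) against postnatal day (x axis) for Ezh1, Ezh2, Suz12 and Eed, with filled circles for replicate 1, open squares for replicate 2 and lines through stage means. At P21 Ezh1 stands at 1.61 and Ezh2 at -1.90, with Suz12 at -0.52 and Eed at -0.09.

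Among the 5 accessory genes of PRC2, Phf1, a Polycomb-like protein that ties the complex to chromatin, rose late. It was 9.64 and 9.33 at P21 and 7.78 and 7.85 at P0 (3.18-fold higher, adjusted p = 6.93e-06), and 2.04-fold higher than at P14. Against P0 it was 1.39-fold higher at P10, not called, and 1.56-fold at P14, called. Phf1 had 1 probe set, and most of its rise came on the P21 arrays with the shifted RNA balance, whose part was not tested. No other accessory gene was called at P21 against P0, with log2 changes of -0.42 for Mtf2 and 0.15 for Phf19, which are also Polycomb-like.

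Polycomb repressive complex 1 (PRC1) ubiquitinates histone H2A and, in its canonical form, binds the mark of PRC2 through a Cbx subunit. Of its 19 matched genes, 1 was higher and 4 lower at P10 than at P0, and 4 were higher and 5 lower at P21. Of all probe sets, 9.24% were higher and 10.1% lower at P10, and 12.4% and 14.9% at P21. Cbx7, a Cbx subunit, had the largest log2 change at P21 among the called genes of the 7 machinery lists. Its log2 level was 6.49 and 6.31 at P0, 6.20 and 6.81 at P3, 6.93 and 6.89 at P7, 7.52 and 7.41 at P10, 8.15 and 8.46 at P14 and 9.55 and 9.20 at P21. Both arrays of each stage from P10 on were above those of every earlier stage, and the rise against P0 was 2.09-fold at P10 (adjusted p = 0.00264), 3.75-fold at P14 and 7.86-fold at P21 (adjusted p = 3.51e-06). Its other 2 probe sets did not show the rise, with log2 changes of 0.08 and 0.08 at P21, and lay in the lowest 25% of values on 12 and 10 of the 12 arrays.

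Cbx2, another Cbx subunit, went the other way, with 6.77 and 6.74 at P10 and 7.78 and 7.64 at P0 (1.94-fold lower, adjusted p = 9.14e-05). It was 2.03-fold lower at P21. Its other probe set, in the lowest 25% on all 12 arrays, gave log2 changes of 0.08 and 0.26. Phc1, a scaffold of canonical PRC1, was 8.76 and 8.82 at P10 and 9.89 and 9.92 at P0 (2.17-fold lower). Rnf2, the catalytic RING subunit, and Kdm2b, which brings a variant PRC1 to CpG islands, were 2.20-fold and 3.33-fold lower at P21 than at P0. The second probe set of Kdm2b was also called lower, as was 1 of the 4 others of Rnf2, whose log2 changes ran from -1.44 to 0.35. The 3 other genes that were higher at P21 were Cbx6, Phc3 and Pcgf5, each by less than 2-fold, and the other probe set of Phc3 gave a log2 change of -0.16 that was not called. The P21 arrays behind these values are those with the Actb excess of 2.32 and 2.03, whose part in them was not tested gene by gene.

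Among the 6 genes that take off Polycomb marks, the histone demethylases and the partners of the H2A deubiquitinase, none was higher against P0 at any stage. The share of all probe sets that were higher ran from 0.981% at P3 to 12.4% at P21. Asxl3 fell most, to 8.64 and 8.61 at P10 and 7.95 and 8.13 at P21, against 10.22 and 10.21 at P0 (3.01-fold and 4.52-fold lower). Asxl1 was 1.88-fold lower at P10 and 2.29-fold at P21. Kdm6b, a demethylase of lysine 27, was 9.39 and 9.83 at P21 and 11.07 and 10.78 at P0 (2.49-fold lower, adjusted p = 0.000365, limma). Its log2 changes of -0.23 at P10 and -0.53 at P14 against P0 were not called. Of its other 2 probe sets, 1 was called lower at P21 too, and the other gave 0.04. The P21 arrays behind these values are those with the shifted RNA balance, whose part was not tested.

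The list of readers of methylated CpG and their relatives had 6 matched genes. Of these, 2 were higher and 1 lower at P10 against P0, and also 2 and 1 at P21. The lower gene was Mbd3 at both stages. Among all probe sets 9.24% were higher and 10.1% lower at P10, and 12.4% and 14.9% at P21. Zbtb4, a zinc finger protein that binds methylated CpG, was 11.66 and 11.93 at P21 and 10.03 and 9.82 at P0, and was called higher than at P0 at each stage from P7 on; of its 3 other probe sets 2 were called higher at P10 and 1 at P21. Mbd3, a subunit of the NuRD complex, was 8.48 and 8.49 at P10, against 9.28 and 9.23 at P0. Mbd2 was called higher at P10 by its brightest probe set, whose log2 change at P21 was 0.53, under the fold limit. Its probe set 1425803_a_at rose by 0.95 at P10 and fell by 1.10 at P21, both called. Besides Zbtb4, the gene higher at P21 was Zbtb38 (log2 change 0.68, adjusted p = 0.0016, limma). The other 2 probe sets of Zbtb38 gave -0.11 and 0.05 there, not called.

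**Figure D5:**
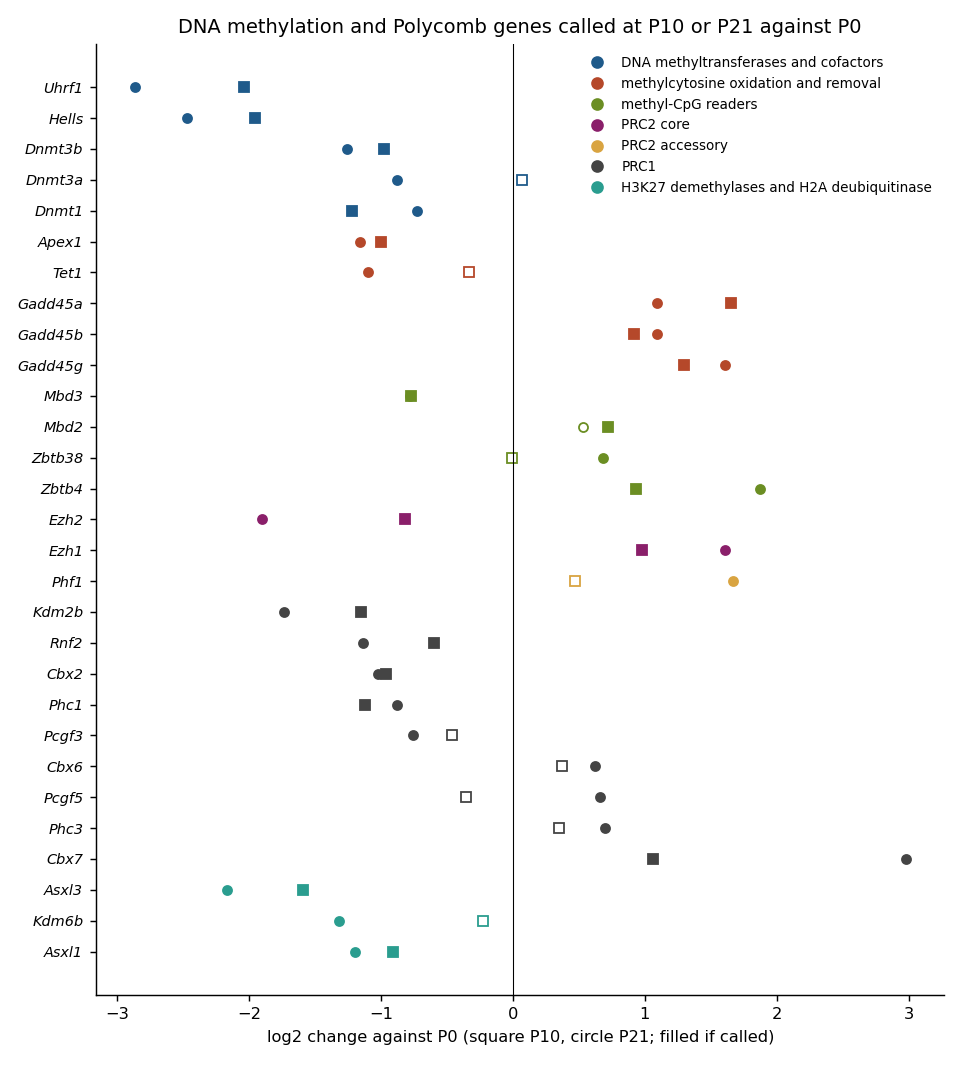
Log2 change against P0 (x axis) of each DNA methylation and Polycomb gene called at P10 or P21, members included, with squares for P10, circles for P21, filled where called, and colours for the 7 gene lists. Uhrf1 and Hells lie farthest to the left, at -2.87 and -2.47 at P21, and Cbx7 farthest to the right, at 2.98.

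Over the 50 genes of these lists other than the members, 6 were higher and 9 lower at P10 (30.0% called, beside 19.3% of all probe sets), and 10 higher and 11 lower at P21 (42.0%, beside 27.2%). Their median log2 change was -0.08 at P10 and -0.14 at P21. Genes were picked for these lists by role with earlier results known, and 1 probe set per gene, the brightest, was used. The shares over all probe sets include dim ones and are thus not of a like set. With the dimmest 25% of probe sets left out, 8424 of 33782 were called at P10 and 11762 of 33782 at P21 against P0.

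Genes that these systems are known to keep silent showed little movement. Of 21 matched developmental regulators that are classical Polycomb targets, 0 were called at P10 against P0 by limma, and 2, Hoxd8 (mean 6.28 at P21, against 6.91 at P0) and Cdkn2a (3.89, against 4.48), were lower at P21. Of all probe sets 19.3% were called at P10 and 14.9% were lower at P21. Both means of Cdkn2a lay below the 25th percentile of every array (5.06 to 5.18) and may be background. The P21 arrays are those with the shifted RNA balance, whose part was not tested. Of the 21, 9 were in the lowest 25% of values on all 12 arrays, and the mean log2 level of the list stayed between 5.09 and 5.30 on every array. Of 10 matched germline genes that depend on DNA methylation for silence, 8 were in the lowest 25% on every array. Sycp3, a protein of the meiotic chromosome axis, was called higher at P21 (mean 6.87, against 5.96 at P0, adjusted p = 0.0471, limma). No other was called against P0. This 1 of 10 stands beside 12.4% of all probe sets higher at P21, a like share.

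The genes whose pattern over the 12 arrays was most like that of a member were sought among 11657 genes by Pearson's r, which is a description only, since the arrays share stages and libraries. For Uhrf1 these were Mcm5 (0.988), Mbnl3 (0.986), Cdt1 (0.985), Mcm2 (0.984) and Fignl1 (0.982), of which Mcm5, Cdt1 and Mcm2 belong to the licensing of DNA replication. For Ezh2 they were Gpsm2 (0.982), Cdca4 (0.974), Eva1b (0.972), Nasp (0.97) and Natd1 (0.968). For Ezh1 they were Rnf6 (0.99), Clk3 (0.989), Kcnn2 (0.989), Serping1 (0.986) and Lonrf3 (0.986), all of which rose with age as it did. None of the 5 nearest genes of 1 of these 3 members was among the 5 of another.

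Dnmt1 was most like Polr2a (0.958), the largest subunit of RNA polymerase II, and Kdm3b (0.949), and Dnmt3b was most like Ralgps2 (0.985) and Rrp1b (0.98). Dnmt3a was most like Dnaja1 (0.963) and Col2a1 (0.963), the collagen of cartilage. Tet1 was most like Col3a1 (0.977), a fibrous collagen, whose list of fibroblast genes had a mean log2 level of 12.54 at P21 and 13.30 at P0. For Suz12 and Eed the nearest were Ppp4r3b (0.967) and Kbtbd8 (0.955).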

How the data were processed

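RNA of 12 mice was measured on Affymetrix mouse expression arrays. Per the paper's methods and the submitters' processing notes, Affymetrix Expression Console was used by the authors for both RMA and MAS5, and the deposited values are log2 RMA values per probe set. The software version is not given in the sources used here. The values were used as they are, and 0 columns belonged to other samples. Without the 64 control probe sets, 45037 of 45101 were tested, of which 34945 had 1 gene symbol, 932 several and 9160 none by the platform annotation. RMA gives no detection calls, so values in the lowest 25% of an array are marked as possible background. Precision is limited by 2 arrays per stage.

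The fit used limma 3.58.1 under R 4.3.3, with lmFit and eBayes on all arrays (6 groups, 6 residual degrees of freedom, pooled residual SD 0.19), with Benjamini-Hochberg adjustment over all 45037 probe sets. P3, P7, P10, P14 and P21 were set against P0, and each stage from P7 on against the one before. The fold limit of 1.5 is that of the study's methods, whose unpaired test without moderation ("the methods' t-test") was an alternative. The fit was tested on simulated data.

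The members and the 21 gene lists were chosen with earlier results of these data known. Named besides the members are genes of the machinery lists called in a comparison, up to 4 called genes of each other list, and the 5 genes most like each member, with a selection printed. RefSeq promoters (GRCm38.p6) matched all 9 members.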

Additional observations from a re-analysis of the deposited data

How the results depend on the processing

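Leaving out the dimmest 25% of probe sets, an intensity trend, array weights and shifting arrays to 1 median moved no count of members called by over 1.5 times. The labels do not say that mice of the same replicate number were paired. Over 15 pairs of stages the correlation of deviations ran from -0.12 to 0.32 (median 0.09), with 6 over 0.1 and 2 under -0.1. These values do not exclude a weak effect shared by replicate number. With the replicate number as a block the counts stayed at 2, 3, 5, 5 and 7 members for P3, P7, P10, P14 and P21 against P0. They stayed at 0 for P7 against P3, and at 3 for P21 against P14. A fit with the Actb balance as covariate gave 1 member for P3 against P0, 3 for P14 against P0, 0 for P21 against P0, 1 for P7 against P3 and 0 for P21 against P14. Fitting only the 4 arrays compared gave 0 for P3 against P0, 1 for P7 against P3 and 0 for P21 against P14, with fewer degrees of freedom. The mean of all probe sets gave 1 for P7 against P3. For P21 against P14, these covariate and 4-array fits each called 0 of all 45037 probe sets. The methods' t-test without adjustment gave 2 for P14 against P0 and 1 for P7 against P3. It called 7841 and 3163 of all 45037 probe sets there. After Benjamini-Hochberg adjustment it gave 1 for P21 against P0 (Ezh1) and 0 in the other 8 comparisons. Of all 45037 probe sets, the adjusted test called 24 at P21 against P0 and at most 97 in any other comparison. With 1 array left out at a time, in which a lone array is assumed to vary like the others, the counts ran from 0 to 2 (P3 against P0), 1 to 3 (P7), 4 to 5 (P10), 3 to 5 (P14) and 6 to 7 (P21), from 0 to 1 for P7 against P3 and for P14 against P10, from 0 to 4 for P21 against P14, and from 6 to 8 over the 6 stages. No single member changed direction on a called comparison in any setting, 78 of its values lost a call and 10 gained one. Where a cause of such a change is not given, it was not tested.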

Other observations

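Among the 50 genes of the machinery lists other than the members, 4 were called lower at P3 than at P0 and at P7. These calls, on brightest probe sets, were noticed after the values were seen. Over all probe sets, 2.8% were lower at P3 than at P0 and 6.0% higher at P7 than at P3. The share called in both was not counted. Other probe sets showed the lower P3 level for Jarid2 and in part for Kdm6b, and not for Tet2 or Asxl2. Jarid2, which guides PRC2 to its targets, was 9.81 and 9.40 at P3 and 10.44 and 10.40 at P0 (1.76-fold lower, adjusted p = 0.011, limma), and 10.80 and 10.59 at P7, 2.13-fold higher than at P3 (adjusted p = 0.000973). Both of its other probe sets were called too, with log2 changes of -0.83 and -0.67 at P3 against P0 and 0.83 and 0.83 at P7 against P3. Tet2, a relative of Tet1, was 8.80 and 8.71 at P3 and 9.66 and 9.56 at P0 (1.81-fold lower, adjusted p = 0.0023), and 9.55 and 9.57 at P7. Its other probe set gave a log2 change of -0.19 at P3 against P0 (adjusted p = 0.7) and 0.12 at P7 against P3. Kdm6b, an H3K27 demethylase, was 10.14 and 9.73 at P3 and 11.07 and 10.78 at P0 (1.99-fold lower), and 11.20 and 10.98 at P7. Of its other 2 probe sets, 1 was called in both comparisons (-0.67 and 0.68), and the dimmer gave 0.48 and -0.03, not called. Asxl2, a partner of the H2A deubiquitinase, was 8.75 and 8.60 at P3 and 9.46 and 9.40 at P0 (1.69-fold lower), and 9.46 and 9.55 at P7. None of its other 4 probe sets was called, with log2 changes from -0.42 to 0.08 at P3 against P0, and 2 of them lay in the lowest 25% of values on all 12 arrays. On the brightest probe set of each of these 4 genes both P3 arrays lay below all 4 arrays of P0 and P7. Further genes had this order of arrays too, among them Gadd45g and the members Dnmt3a and Tet1. Their brightest probe sets were not called at P3 against P0. The share of all probe sets with this order of arrays was not counted.

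Of the 50 genes of the machinery lists other than the members, 6 were lower and 0 higher at P3 against P0, and 7 were higher and 2 lower at P7 against P3. Over all probe sets, 2.8% were lower at P3 than at P0 and 6.0% higher at P7 than at P3. On the P3 arrays the RNA balance of Actb was 1.0 and 1.24, against 0.92 and 0.95 at P0.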
